A study of Mus musculus with 5 samples.

Results

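The genes described here are the translation initiation and elongation factors, the proteins that load the ribosome onto mRNA and move it along the coding sequence. Every gene symbol beginning with Eif or Eef and a digit was taken, and the eIF2α kinases (symbols beginning with Eif2ak), Eif4ebp1 and Eif2s1 were left out, which kept 57 of the 24046 symbols in the table. They were measured by bulk RNA sequencing in hematopoietic stem cells (HSCs) from mouse bone marrow, to ask how their transcripts differ when the RNA-binding protein SYNCRIP is lost. WT cells were Syncrip flox/flox without Cre (Mx1 Cre-, 3 libraries, WT 1 to WT 3), and KO cells were Syncrip flox/flox with it (Mx1 Cre+, 2 libraries, KO 2 and KO 3). In both groups, marrow had been transplanted into congenic CD45.1 mice 9 weeks before harvest, recipients were injected with pIpC 3 weeks before harvest, and CD45.2+ Lin- Sca1+ cKit+ CD150+ CD48- cells were sorted. Per the study's methods, marrow donors were young adults and recipients were lethally irradiated. The Mx1 promoter responds to interferon, which pIpC elicits, so WT cells share the interferon exposure but not Cre, and deletion is not restricted to HSCs. The study states biological replicates for its experiments in general, but the labels do not tie these libraries to separate recipients, so that the tests measure the spread between libraries, part of which may be technical.

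Initiation begins when eIF2 brings the initiator tRNA to the small ribosomal subunit together with eIF1, eIF1A, eIF3 and eIF5, while eIF4F (the cap-binding protein eIF4E, the helicase eIF4A and the scaffold eIF4G) brings in the capped mRNA. eIF2B recharges eIF2 with GTP, and eIF5B joins the large subunit. In elongation, eEF1A delivers aminoacyl-tRNA, eEF1B recharges eEF1A, eEF2 translocates the ribosome, and the hypusine-bearing eIF5A relieves stalls. Adult HSCs are known for a low rate of protein synthesis, and both higher and lower rates impair them.

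The shallowest library, KO 3, held 12539599 reads and the deepest, WT 3, 22779536, with both KO libraries below every WT library. Syncrip, on chromosome 9, was lower in KO by limma (log2 fold change -2.43, SE 0.22, adjusted p = 0.0352), with 18.5% of the WT level remaining. It kept its direction in every alternative, but limma's call was lost by limma-voom (adjusted p = 0.0826), without a filter (0.0503), without dependence on length and GC (log2 fold change -1.47, 0.140) and when any 1 WT library was left out (0.164 to 0.209). HSC markers such as Kit, Hlf and Procr were present in all libraries, at summed shares of 0.0633% to 0.107% of reads over a list of 9 stem and progenitor genes. All 9 overlapped between the groups, but some varied widely within them. Kit was at 8007 to 10741, whereas Hlf was at 1719, 1028 and 631 in WT and 924 and 2114 in KO. Procr was at 439, 243 and 152 in WT and 281 and 527 in KO. Neutrophil and myeloid progenitor genes (6 of 6 measured) took 1.65% of reads in KO 3 against 2.99% to 3.41% in the other libraries. In KO 3, Mpo, Ctsg, S100a8 and S100a9 were below all WT values, while Elane and Prtn3 lay within the WT range. Cd48, whose protein the gate excludes, was at 601 to 768 in WT and at 459 and 191 in KO 2 and KO 3, and Mpo was at 175652 or more in every library. Adipocyte genes took 0.107% of reads in KO 2, where Ucp1 had a normalized read count of 5622 and was at 0 elsewhere. The part of these shifts in the values below was not tested, and RNA from a bulk sort cannot tell fewer cells of a type from less RNA per cell.

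Across the whole set, the translation factors kept their share of the transcriptome, while their transcripts shifted in both directions, as those of all genes did. Together they took 1.56%, 1.40% and 1.51% of reads in WT 1, WT 2 and WT 3, and 1.53% and 1.51% in KO 2 and KO 3. Of the 57, 54 passed the filter (a normalized read count of at least 10 in at least 2 libraries). Eef1a2 and Eif4e1b, the neuromuscular and oocyte forms of eEF1A and eIF4E, had no read in any library, which allows up to 3 reads (a normalized read count of 2.50 to 4.56), and Eif2s3y had at most 2 reads. Eif3j1 and Eif3j2 carried identical reads in all libraries and cannot be told apart, so that the 54 symbols stand for 53 measurements. The median log2 fold change of KO against WT was -0.04 over the 54, next to 0.02 over all 13661 genes tested. The extremes were Eif5a2 at -1.79 and Eef2 at 0.60.

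By limma, 0 of the 54 members passed an adjusted p of 0.05, where 0.00732% of all genes tested did. At an unadjusted limma p under 0.05 there were 18 members, 7 higher and 11 lower in KO, beside 27.8% of all genes. edgeR's quasi-likelihood test on the read counts also called 0 members (0.0146% of all genes). DESeq2, the tool of the study, called 13, beside 19.3% of all genes. Of these, 4 were higher (9.54% of all genes) and 9 lower (9.81%). Both KO values lay above all WT values for 14 members, where 23.9% of all genes did so, and below all WT values for 13, where 23.2% did. Without WT 2 the number below was 22, beside 29% of all genes, and without KO 2 it was 23, beside 38.8%. With 3 libraries against 2, an exact two-sided permutation test of a single gene cannot give a p below 0.2.

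**Figure D1:**
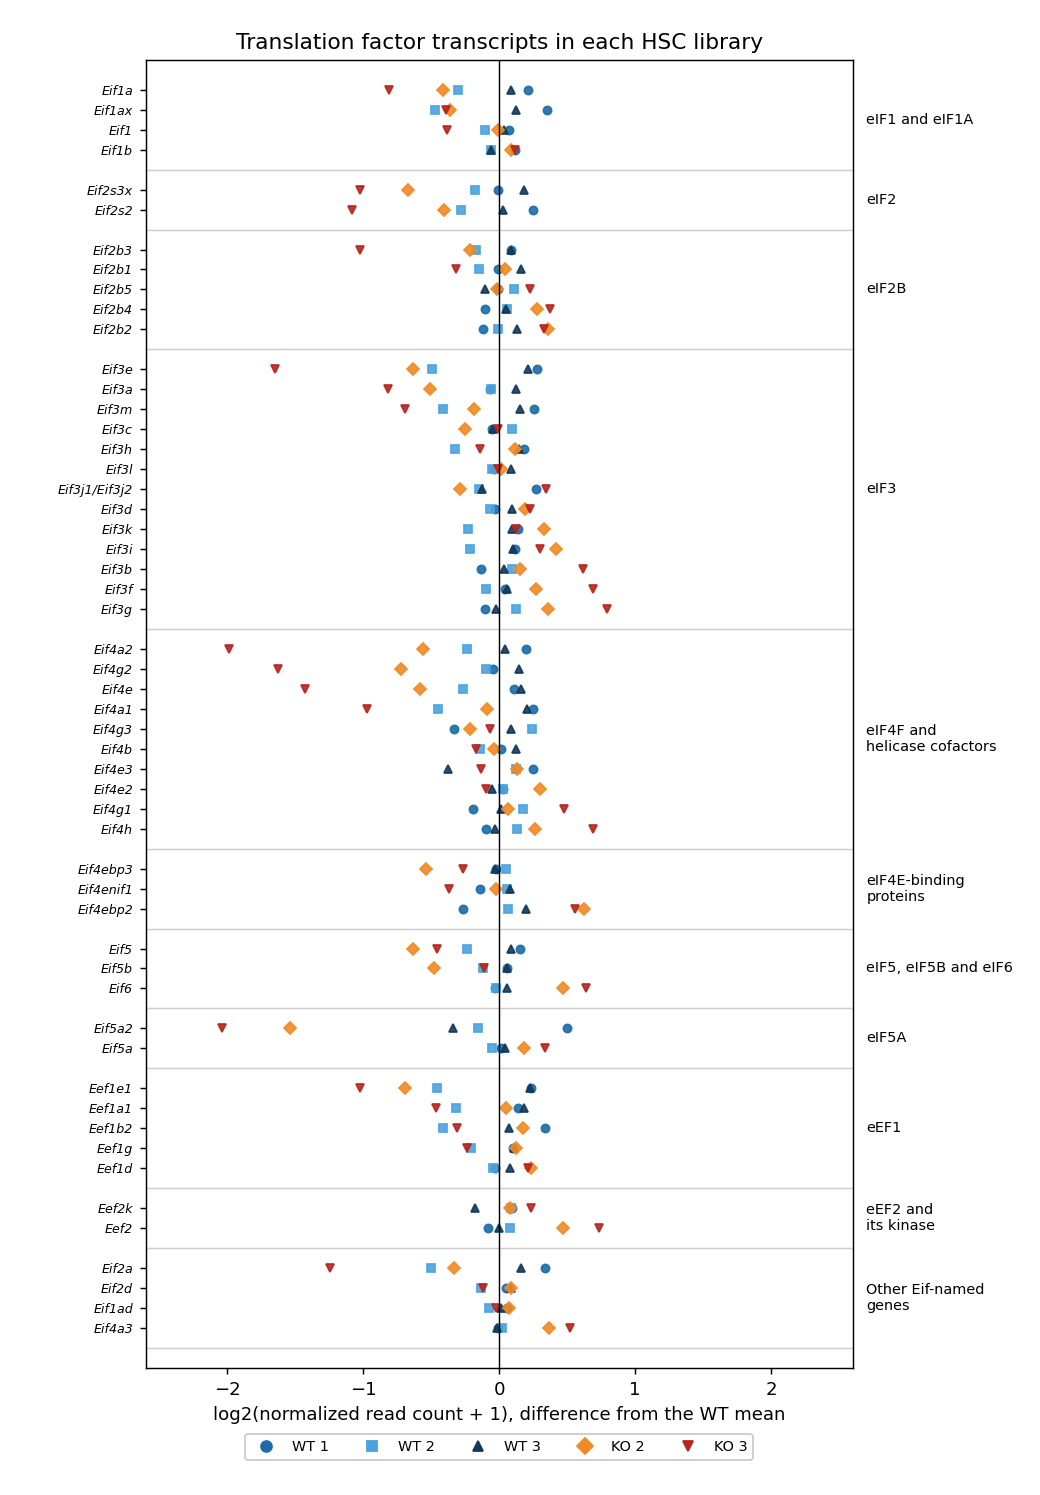
Each row is a translation factor and each point a library, placed at its log2(normalized read count + 1) minus the mean of the 3 WT libraries, with members grouped by factor complex. Low and high members occur side by side within eIF3, eIF4F and eEF1, and in 40 of the 53 measurements KO 3 lay further from the WT mean than KO 2 (75.5%, beside 72.5% of all genes tested).

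In the cap-binding complex eIF4F, DESeq2 called Eif4g2, Eif4e and Eif4a2 lower. Of its 10 tested genes, 3 had both KO values below all WT values and 1 above (beside 23.2% and 23.9% of all genes), with a median log2 fold change of -0.12. Eif4g2 (chromosome 7, 111067750 to 111083030, minus strand) encodes a scaffold related to eIF4G1 that lacks the eIF4E-binding region and serves cap-independent initiation. Its normalized read count was 23402, 22619 and 26679 in WT 1 to WT 3, and 14639 and 7821 in KO 2 and KO 3. The KO mean of 11230 ± 4821 (SD, n = 2) was 46.3% of the WT mean of 24234 ± 2154 (SD, n = 3), with a log2 fold change of -1.18 (SE 0.26, limma adjusted p = 0.0815, DESeq2 adjusted p = 0.00238). KO 3 was lower than KO 2, and the groups did not overlap.

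Eif4e (chromosome 3, 138526179 to 138559696, plus strand), which encodes the cap-binding protein itself, stood at 2634, 2030 and 2732 in WT and at 1629 and 907 in KO. This gave a log2 fold change of -1.01 (SE 0.27, limma adjusted p = 0.0860, DESeq2 adjusted p = 0.0145), which became -0.30 once freed of dependence on length and GC. The cap-binding paralogs overlapped between the groups. Eif4e2 read 2310, 2312 and 2193 in WT against 2794 and 2120 in KO, and Eif4e3 read 721, 659 and 467 against 663 and 551. Eif4ebp2, the gene of a repressor that binds eIF4E, was above all WT values in both KO libraries, with 277, 349 and 381 in WT and 513 and 491 in KO (limma log2 fold change 0.59, SE 0.26, adjusted p = 0.179). Of the other eIF4E-binding proteins, Eif4ebp3 was at most 78.1 in any library, and Eif4enif1, which encodes the nuclear shuttling partner of eIF4E, overlapped between the groups (log2 fold change -0.20, SE 0.19).

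Among scaffold and helicase genes, DESeq2 called Eif4g2 and Eif4a2 but not their paralogs Eif4g1, Eif4g3 and Eif4a1. Both helicase genes had negative fold changes. Eif4g1, the gene of the main scaffold, had 7865, 10139 and 9054 in WT and 9401 and 12505 in KO, which overlapped (log2 fold change 0.27, SE 0.20). Eif4h, a helicase cofactor, was above all WT values in both KO libraries, at 14901 and 20039 against 11620 to 13603, with a DESeq2 adjusted p of 0.0740. Eif4b, the other cofactor, overlapped, at 4490 to 5409 in WT and 4403 to 4824 in KO. Eif4a2, 1 of the 2 cytoplasmic eIF4A helicases, had 2363, 1753 and 2124 in WT and 1400 and 519 in KO (limma log2 fold change -1.27, SE 0.37, adjusted p = 0.0925, DESeq2 adjusted p = 0.0277). Eif4a1, the other, overlapped between the groups, with 9136, 5648 and 8880 against 7231 and 3936 (limma log2 fold change -0.53, SE 0.30, adjusted p = 0.279).

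The pair is shown because the proteins are close while the transcripts differ in composition. Over 406 aligned residues the proteins were 90.6% identical, and the coding sequences differed at 269 of 1218 aligned bases, of which 134 were G or C in Eif4a1 and A or T in Eif4a2, and 68 the reverse. The stretches below, each 120 coding bases around the codons of the DEAD box that names this helicase family (GENCODE M21, GRCm38, coding bases 490 to 609 of Eif4a1 and 496 to 615 of Eif4a2, 5′ to 3′ on the coding strand), differ at 20 positions, shown in capitals. Eif4a1 lies on chromosome 11 (69666936 to 69672423, minus strand) and Eif4a2 on chromosome 16 (23107444 to 23114136, plus strand).
Eif4a1: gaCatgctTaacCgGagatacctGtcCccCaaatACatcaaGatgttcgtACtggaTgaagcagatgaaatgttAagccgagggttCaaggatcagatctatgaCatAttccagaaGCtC
Eif4a2: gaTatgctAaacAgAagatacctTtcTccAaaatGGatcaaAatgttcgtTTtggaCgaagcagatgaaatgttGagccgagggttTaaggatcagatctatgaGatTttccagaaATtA
At the 20 differing positions, Eif4a1 has G or C at 14 and Eif4a2 at 5, and the stretch is 44.2% GC in Eif4a1 and 36.7% in Eif4a2. The stretches encode 40 residues each, of which 2 differ.

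**Figure D2:**
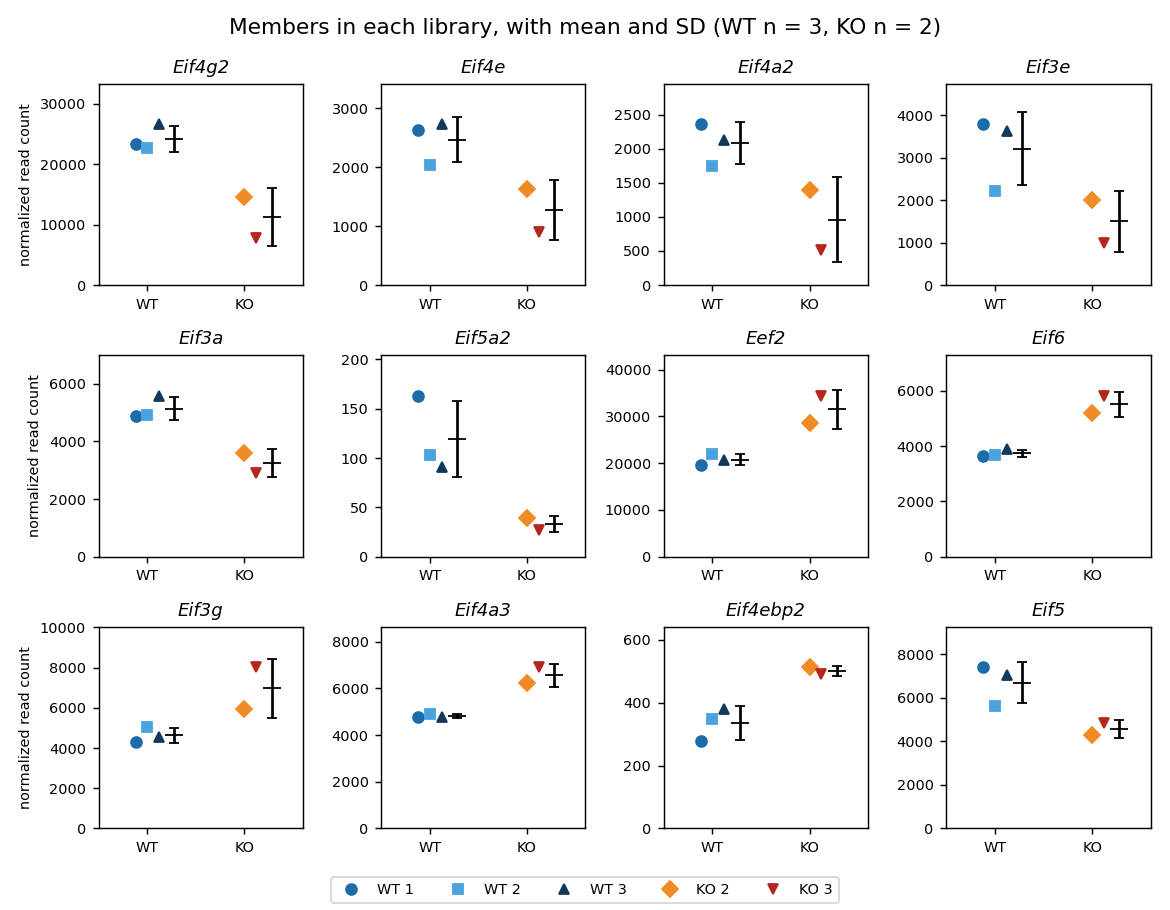
Normalized read count of 12 members in each library (points), with the group mean and SD beside them (black; WT n = 3, KO n = 2) and each axis starting at 0. The KO points of Eif4g2, Eif4e, Eif4a2, Eif3e, Eif3a, Eif5a2 and Eif5 lie below all WT points, and those of Eef2, Eif6, Eif3g, Eif4a3 and Eif4ebp2 above.

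In the ternary complex and its recycling factor, DESeq2 called Eif2s3x lower and called no other tested member of eIF2 or eIF2B. For eIF2, Eif2s1 was left out and Eif2s3y was not tested. Eif2s3x, the gene of the tRNA-binding γ subunit, had 373, 332 and 426 in WT and 235 and 184 in KO (limma log2 fold change -0.85, SE 0.28, adjusted p = 0.109, DESeq2 adjusted p = 0.0384). Eif2s2, the gene of the β subunit, had 1585, 1095 and 1360 against 1003 and 629 (limma log2 fold change -0.74, SE 0.26, adjusted p = 0.121, DESeq2 adjusted p = 0.0640). Both genes were lower in each KO library than in any WT library, and freed of length and GC dependence they were at -0.39 and -0.13. Of the 5 eIF2B subunit genes, Eif2b2 and Eif2b4 were above all WT values in both KO libraries (log2 fold changes 0.34 and 0.32, SE 0.18 and 0.17) and Eif2b3 was below (-0.62, SE 0.28), beside 23.9% of all genes above and 23.2% below. None of the 3 passed an adjusted p of 0.05 by limma, edgeR or DESeq2. Eif2b5, the catalytic subunit, overlapped, at 2459 to 2852 in WT and 2614 to 3097 in KO.

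Of the 4 genes of the scanning factors eIF1 and eIF1A, Eif1a was below all WT values in both KO libraries, as were 23.2% of all genes, and the other 3 overlapped. Eif1, whose product guards start codon choice, overlapped (log2 fold change -0.20, SE 0.18), as did its paralog Eif1b (0.10, SE 0.18). Eif1a had 2388, 1672 and 2182 in WT and 1546 and 1174 in KO (limma log2 fold change -0.61, SE 0.22, adjusted p = 0.128, DESeq2 adjusted p = 0.0666). Eif1ax, its X-linked counterpart, had 2093, 1184 and 1788 against 1277 and 1251, and WT 2 lay below both KO libraries.

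eIF3, the largest initiation factor, had subunits that DESeq2 called in each direction. Of its 14 symbols, in which Eif3j1 and Eif3j2 are a single measurement, 5 had both KO values above all WT values and 2 below (beside 23.9% and 23.2% of all genes), and the median log2 fold change was 0.03. The 2 low subunits were Eif3e and Eif3a. Eif3e (chromosome 15, 43250058 to 43282719, minus strand), a core subunit known as INT6, had 3801, 2221 and 3633 in WT and 2017 and 996 in KO (limma log2 fold change -1.14, SE 0.34, adjusted p = 0.0931, DESeq2 adjusted p = 0.0183). Eif3a (chromosome 19, 60761117 to 60790658, minus strand), the large scaffold subunit, had 4888, 4913 and 5590 against 3605 and 2902 (limma log2 fold change -0.66, SE 0.18, adjusted p = 0.0859, DESeq2 adjusted p = 0.0108). In Eif3e the WT libraries were themselves spread, with WT 2 near KO 2, whereas in Eif3a they were close together. Freed of dependence on length and GC, Eif3e was at -0.37 and Eif3a at -0.25.

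The 5 high subunits were Eif3g, Eif3f, Eif3b, Eif3i and Eif3d. Eif3g, an RNA-binding subunit active in scanning, had 4302, 5048 and 4556 in WT and 5937 and 8013 in KO (limma log2 fold change 0.58, SE 0.19, adjusted p = 0.108, DESeq2 adjusted p = 0.0342). It was the high subunit that DESeq2 called. The log2 fold changes of the other 4 ran from 0.21 in Eif3d, whose product can bind the cap of some mRNAs, to 0.48 in Eif3f, with DESeq2 adjusted p from 0.0750 to 0.383. The remaining subunits (Eif3c, Eif3h, Eif3k, Eif3l, Eif3m and the Eif3j1 and Eif3j2 pair) overlapped between the groups, with log2 fold changes from -0.44 to 0.23. Per kilobase of transcript in WT, the subunits also differed in level, from 1001 for Eif3a to 4210 for Eif3g, on the scale of normalized reads per kilobase, leaving out Eif3j1 and Eif3j2, whose shared reads give no level of their own.

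Among the joining factors, DESeq2 called Eif5 lower and Eif6 higher. Eif5, which encodes the GTPase activator of eIF2, had 7398, 5619 and 7036 in WT and 4278 and 4842 in KO (limma log2 fold change -0.54, SE 0.19, adjusted p = 0.114, DESeq2 adjusted p = 0.0411). Eif6 (chromosome 2, 155819832 to 155826925, minus strand), whose product keeps the large subunit from joining too early, had 3655, 3685 and 3887 against 5188 and 5820 (limma log2 fold change 0.55, SE 0.16, adjusted p = 0.0920, DESeq2 adjusted p = 0.0126). The WT values of Eif6 were close together (SD 126), and both KO values lay beyond them. Eif5b overlapped (log2 fold change -0.29, SE 0.19). Freed of length and GC dependence, Eif5 changed sign to 0.09 and Eif6 was at 0.01, with no call by limma for either.

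The eIF5A paralogs differed widely in level and lay on opposite sides of WT in KO. Eif5a was the member with the highest level per kilobase in WT, at 28299, whereas Eif5a2 was at 23.7. Eif5a2 had the lowest fold change of all members, with 163, 103 and 90.8 in WT and 39.1 and 27.3 in KO (limma log2 fold change -1.79, SE 0.48, adjusted p = 0.0855, DESeq2 adjusted p = 0.0123), which rested on 18 to 196 reads per library. Eif5a itself had 41000, 39155 and 41843 in WT and 46174 and 51259 in KO, above all WT values (limma log2 fold change 0.26, SE 0.18, adjusted p = 0.375), and changed sign to -0.06 once freed of dependence on length and GC. The stretches below, 120 coding bases around the codon of the lysine that becomes hypusine (GENCODE M21, GRCm38, coding bases 85 to 204 of both genes, 5′ to 3′ on the coding strand), are shown because they encode the same 40 residues in both paralogs (0 differ) yet differ at 19 bases, in capitals. Eif5a lies on chromosome 11 (69916714 to 69921958, minus strand) and Eif5a2 on chromosome 3 (28781276 to 28798846, plus strand).
Eif5a: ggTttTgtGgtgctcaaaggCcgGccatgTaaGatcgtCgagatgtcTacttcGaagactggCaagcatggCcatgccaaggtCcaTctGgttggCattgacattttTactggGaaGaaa
Eif5a2: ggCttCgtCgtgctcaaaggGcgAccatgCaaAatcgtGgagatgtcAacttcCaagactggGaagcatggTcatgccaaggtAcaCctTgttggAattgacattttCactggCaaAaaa
At the 19 differing positions, Eif5a has G or C at 13 and Eif5a2 at 11, and the stretches are nearly alike in GC, at 49.2% and 47.5%. Over the whole coding sequence, the paralogs differed at 125 of 459 aligned bases, of which 54 were G or C in Eif5a and A or T in Eif5a2, and 30 the reverse. The proteins were 83.0% identical over 153 aligned residues.

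Among the elongation factors, DESeq2 called Eef2 higher and Eef1e1 lower. Eef2 (chromosome 10, 81176631 to 81182498, plus strand) had 19536, 21893 and 20668 in WT and 28589 and 34456 in KO, and the KO mean of 31523 ± 4149 (SD, n = 2) was 152% of the WT mean of 20699 ± 1179 (SD, n = 3). Its log2 fold change of 0.60 (SE 0.18, limma adjusted p = 0.0943, DESeq2 adjusted p = 0.00938) was the highest of all members, but became 0.10 once freed of dependence on length and GC. Eef2k, the gene of the kinase that inhibits eEF2, overlapped, at 2616 to 3156 in WT and 3126 to 3476 in KO. Eef1a1, which delivers aminoacyl-tRNA, had 38166, 27852 and 39321 in WT and 35914 and 25104 in KO, with as wide a spread within each group as between them (log2 fold change -0.21, SE 0.24).

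The eEF1B exchange factor genes Eef1b2 and Eef1g overlapped as well (log2 fold changes -0.06 and -0.06, SE 0.26 and 0.19). Eef1d was above all WT values in both KO libraries, at 4243 and 4179 against 3485 to 3799, without passing a test (DESeq2 adjusted p = 0.339). Eef1e1, named as an elongation factor but known as AIMP3, a part of the multi-tRNA synthetase complex, had 1121, 695 and 1115 in WT and 591 and 468 in KO (limma log2 fold change -0.86, SE 0.27, adjusted p = 0.104, DESeq2 adjusted p = 0.0275), and -0.39 once freed of dependence on length and GC. Among 4 other Eif-named genes, Eif4a3, which encodes an exon junction complex helicase rather than an initiation factor, had 4792, 4893 and 4761 in WT and 6216 and 6899 in KO (limma log2 fold change 0.44, SE 0.16, adjusted p = 0.123, DESeq2 adjusted p = 0.0400). Eif1ad, Eif2a and Eif2d overlapped, with log2 fold changes of 0.02, -0.79 and -0.01.

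Because each ratio is formed within a library, partner transcripts were next compared per kilobase. The ratio of Eif4a1 to Eif4a2 was 5.90, 4.92 and 6.38 in WT 1 to WT 3, and 7.88 and 11.6 in KO 2 and KO 3. The ratio of Eif4g1 to Eif4g2 was 0.477, 0.636 and 0.481 in WT and 0.911 and 2.27 in KO, so that in KO 3 the canonical scaffold exceeded Eif4g2. The ratio of Eif4e to Eif4e2 was 0.793, 0.611 and 0.867 in WT and 0.406 and 0.298 in KO. Each of these separated the groups, with KO 3 farther from WT than KO 2. Of the 8 paralog ratios that could be formed from separate reads, 7 separated the groups, each with KO shifted toward the partner of higher GC content, and Eif1a to Eif1ax overlapped, at 2.06, 2.55 and 2.20 in WT and 2.19 and 1.69 in KO. How often ratios of other gene pairs separated the groups was not computed.

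Further ratios were chosen after the values of their genes were seen and are given as a description. The ratio of Eif4ebp2 to Eif4e was 0.0908, 0.148 and 0.120 in WT and 0.272 and 0.467 in KO. The ratio of Eif3b to Eif3a, subunits of the same complex, was 3.87, 4.51 and 3.79 in WT and 6.38 and 10.9 in KO. Eef2 to Eef1a1 was 0.297, 0.457 and 0.305 in WT and 0.462 and 0.797 in KO, where WT 2 and KO 2 nearly touched. Eef2 to Eef2k also separated the groups, and Eif2b5 to Eif2b3 overlapped.

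**Figure D3:**
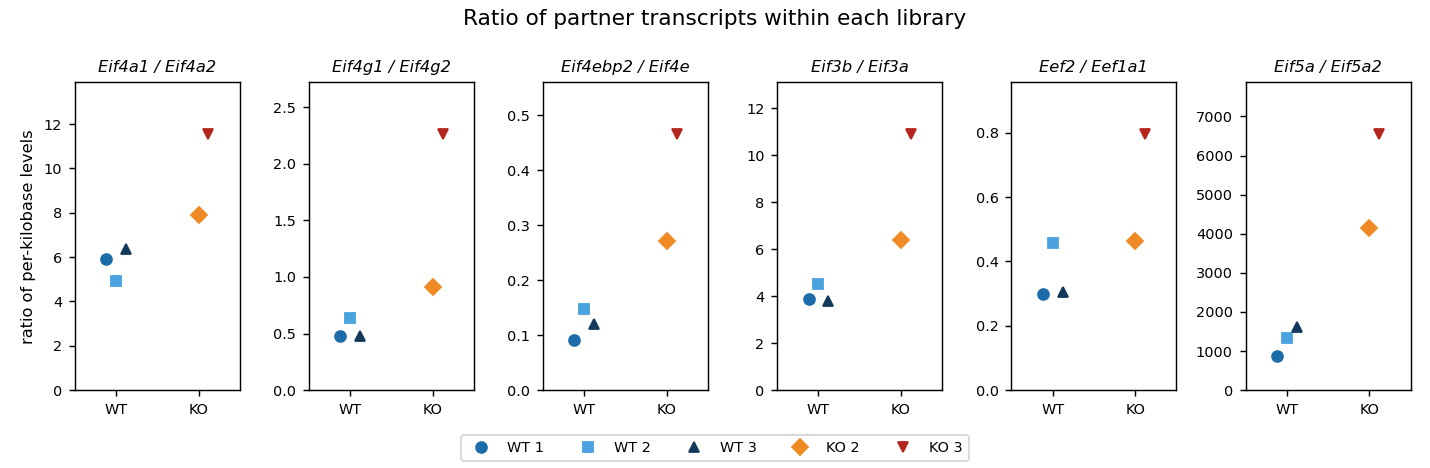
Ratio of per-kilobase levels of 6 pairs of translation factor transcripts in each library (points, axes from 0), with WT on the left and KO on the right. In each panel both KO libraries lie above all WT libraries, and KO 3 lies above KO 2.

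What the low and high members shared was base composition. The classes of GC content used here were set after the values were seen and serve as description. Of the 17 tested members whose longest protein-coding transcript was under 45% GC, 11 had both KO values below all WT values and 0 above, with a median log2 fold change of -0.74, beside -0.63 for all genes of that class, of which 55.9% were below. Of the 20 tested members at 52% or more, 13 were above and 1 below (Eif4ebp3), with a median of 0.30, beside 0.42 for all genes of that class, of which 45.2% were above. The 17 in between had 1 above and 1 below and a median of -0.10, beside -0.12 for all genes of that class, of which 12.5% were above and 25.5% below. The 9 members that DESeq2 called lower were all under 45% GC, from Eif5a2 at 38.8% to Eif3a at 44.5%, and the 4 called higher were all above 52%, from Eif4a3 at 54.1% to Eif6 at 57.9%.

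Across the 53 measurements, log2 fold change and GC content correlated at r = 0.85 (Spearman's rho 0.84), and across 13015 genes tested at r = 0.55. These points share their libraries and are not independent replicates. Per 10 points of GC, the members' log2 difference from the WT mean changed by 0.60 in KO 2 and by 1.07 in KO 3, beside 0.52 and 0.96 over all genes tested, so that the slopes were close. The WT libraries differed from each other on the same scale, with slopes of -0.31 in WT 1, 0.33 in WT 2 and -0.02 in WT 3, each set against the other WT libraries, beside -0.17, 0.26 and -0.10 over all genes tested. Within the members, r with fold change was 0.77 for the coding sequence, 0.71 for its last codon positions and 0.75 for the rest of the transcript, so that no part of the transcript stood out. With transcript length r was -0.27.

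Each library was next freed of a linear dependence on transcript length and GC. The members' medians became -0.25, -0.08 and -0.04 in the low, middle and high GC classes. All genes of those classes had medians of -0.024, -0.0021 and -0.022. In both KO libraries, 7 of 54 members lay above all WT values, beside 16% of all genes. Eif4g2 was then at -0.68, Eif5a2 at -0.94, Eif4a2 at -0.51, Eif4e at -0.30, Eif3e at -0.37, Eif3a at -0.25, Eef1e1 at -0.39, Eef2 at 0.10, Eif6 at 0.01, Eif3g at 0.20 and Eif4a3 at 0.19, on the log2 scale. Eif5, Eif1a and Eif1ax were among the members that changed sign, to 0.09, 0.16 and 0.39. Eif3f (0.52) and Eif4ebp2 (0.41) were among the members that stayed high, and 0 members passed an adjusted p of 0.05 by limma. Whether the dependence on GC content came from the cells or from library preparation was not tested, and with genotype and library sharing the same 5 samples they cannot be told apart.

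**Figure D4:**
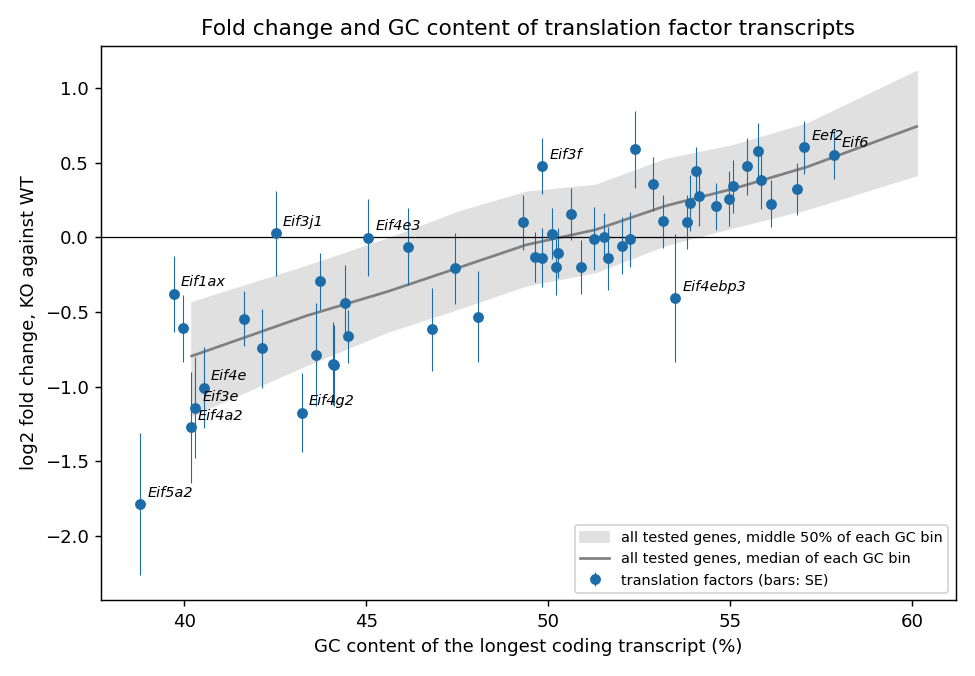
Log2 fold change of KO against WT (vertical axis) against GC content of the longest protein-coding transcript (horizontal axis) for 53 translation factor measurements (points, bars show SE), with the median and the middle 50% of all tested genes in 10 GC bins (grey line and band). Most members low in GC lie below 0 and most members high in GC above it, along the grey line, with Eif4g2 and Eif4ebp3 among those below the band and Eif3j1 above it.

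The study's own HSC list of mRNAs carrying edits from SYNCRIP fused to ADAR, which marks mRNAs that the fusion reached, held 5 members. They were Eif1a, Eif1ax, Eif2d, Eif4e and Eif5. Of these, 3 had both KO values below all WT values and 0 above, with a median log2 fold change of -0.54, beside -0.47 over the 768 tested targets, of which 471 were below. Once the dependence on length and GC was taken out, their median became 0.09 and that of the 768 targets -0.10. The members outside the list (49 tested) had a median of 0.00, with 14 above (28.6%) and 10 below (20.4%), beside 23.9% and 23.2% of all genes.

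Members whose mRNAs are known to begin with a 5′ terminal oligopyrimidine (TOP) tract, which couples their translation to mTOR, lay on both sides of WT in KO. Of 9 such factors, 3 were above all WT values (Eef1d, Eef2 and Eif3f) and 1 below (Eif3e), beside 23.9% and 23.2% of all genes, with a median log2 fold change of -0.06. DESeq2 called Eef2 higher and Eif3e lower. The 9 together took 0.457%, 0.371% and 0.438% of reads in WT and 0.473% and 0.429% in KO.

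Beyond the factors themselves, 45 further genes of cytoplasmic and mitochondrial translation were examined. limma called 0 of them at an adjusted p of 0.05 and 15 of 45 at an unadjusted p under 0.05, beside 27.8% of all genes. DESeq2 called 9, 4 higher and 5 lower, which is 20.0% of the 45 beside 19.3% of all genes, and the median log2 fold change was 0.08. Those lower were Abce1, the ribosome recycling ATPase (log2 fold change -1.23, SE 0.28), Ddx3x, an RNA helicase of initiation (-1.27, SE 0.28), Rps6kb1, the S6 kinase (-0.94, SE 0.21), Larp4 (-0.89, SE 0.20) and Paip2 (-0.71, SE 0.26). Those higher were Dohh, Mknk2, Mtif3 and Tsfm. As among the members, composition moved with these calls, since the lower genes were at 38.7% (Larp4) to 41.0% GC (Ddx3x) and the higher at 50.3% (Tsfm) to 62.5% (Dohh). Dohh, which completes the hypusine of eIF5A, had 1385, 1496 and 1632 in WT and 2855 and 4233 in KO (log2 fold change 1.21, SE 0.21), and Dhps, the enzyme of the preceding step, had 564, 600 and 600 against 798 and 852 (log2 fold change 0.49, SE 0.20, DESeq2 adjusted p = 0.0897). Mknk2, which encodes a kinase of eIF4E, had a log2 fold change of 0.58 (SE 0.20, DESeq2 adjusted p = 0.0445).

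The 2 KO libraries contributed unequally. The median size of the members' log2 difference from the WT mean was 0.27 in KO 2 and 0.38 in KO 3, beside 0.36 and 0.66 over all genes tested. With KO 3 as the lone KO library, assumed to vary like the WT libraries, limma called 19 members, 6 higher and 13 lower, beside 26.6% of all genes. With KO 2 as the lone KO library it called 0, beside 0.082% of all genes, with 9 of 54 members at an unadjusted limma p under 0.05, beside 14.6% of all genes.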

How the data were processed

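Phenol-chloroform RNA of sorted HSCs was made into libraries with a low-input SMART-Seq v4 kit. The submitters' processing notes name STAR, featureCounts, DESeq2 and the mm10 build, and the annotation and strand setting were not given in the sources used here. The authors deposited normalized signal per gene symbol and library, that is, read counts scaled by a size factor per library. All positive values (100%) came out as whole reads within 0.001 of a read, and the recovered totals were 12539599 to 22779536 reads per library. A further deposited table holds the authors' own comparison (log2 fold changes and p-values) and was not used. All pairs of libraries differed beyond sampling noise (lowest chi-square over degrees of freedom 32.6). Reads carried no molecular identifiers and so are not independent, and the floor of 3 reads covers counting error only.

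Genes reaching 10 in 2 or more libraries (13661) were tested with limma (3.58.1, lmFit and eBayes with trend) on log2(value + 1), with Benjamini-Hochberg adjustment over all genes tested. Fold changes are on that scale, which understates changes of low genes. On the recovered reads, edgeR (4.0.16), DESeq2 (1.42.0, the study's tool) and limma-voom served as alternatives, in R 4.3.3. The limma, edgeR and DESeq2 fits were tested on simulated data with known changes. Those data had no GC dependence and the same spread in every library, so that these features were not covered. Other alternatives were the pseudocount, the filter, TMM and quantile scaling, the replicate number as a block, removal of a linear trend on transcript length and GC content, and leaving out each library. Length, GC content, positions and sequences came from GENCODE M21 (GRCm38, the assembly of mm10), from the longest protein-coding transcript per symbol, and for the paralog stretches the longest coding sequence. All 54 tested members and 13015 of the tested genes matched by symbol. The members, complexes and lists were chosen with earlier results of these data known. Members named were 25 preset genes including Syncrip, the highest and lowest member of each complex with 3 or more tested members, and members called by limma, edgeR or DESeq2 up to the 10 lowest p. Others named in the text were chosen after their values were seen. A marker gene on the list is not reported here.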

Additional observations from a re-analysis of the deposited data

How the results depend on the processing

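Of 36 named members, 21 kept the sign of their fold change in all 15 alternatives, a further 2 (Eif5a2 and Eif4ebp3) kept it in the 14 that could be run for them, and none passed an adjusted p of 0.05 except by DESeq2 (13 members in all) or with KO 2 left out. Low depth in KO 3 limits the lowest members, such as Eif5a2 and Eif4ebp3. The cause of the changes below was not tested.

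Removing the dependence on transcript length and GC reversed 12 named members, whose log2 fold changes became 0.024 in Eef1a1, 0.26 in Eef1b2, -0.21 in Eef1d, 0.16 in Eif1a, 0.39 in Eif1ax, -0.12 in Eif1b, -0.10 in Eif2b5, 0.40 in Eif4e3, -0.039 in Eif4g1, 0.091 in Eif5, -0.065 in Eif5a and 0.16 in Eif5b. Under it Syncrip was at -1.47 (limma adjusted p = 0.140) and 7 of 54 members lay above all WT values, beside 16% of all genes. The complex medians became 0.10 for eEF2 and its kinase, 0.021 for eIF1 and eIF1A, -0.26 for eIF2, -0.10 for eIF2B, -0.017 for eIF3, -0.20 for eIF4F, 0.091 for eIF5, eIF5B and eIF6, -0.50 for eIF5A, and -0.17 for eEF1. limma-voom put Eif3j1 at -0.034 and Syncrip at -2.46 (adjusted p = 0.0826), and without a filter Syncrip was at -2.43 (limma adjusted p = 0.0503). Quantile scaling gave 0.046 for Eif4e3 and a median of -0.19 for eIF4F. With a mean of at least 100, the medians were 0.20 for the eIF4E-binding proteins (2 members left) and 0.26 for eIF5A (1 left).

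Deviations from the group mean correlated at r = -0.06 for WT 2 with KO 2 and -0.18 for WT 3 with KO 3, over 13661 genes. With 2 KO libraries, their deviations are mirror images, so that these values cannot decide whether shared numbers mark pairs. With the replicate number as a block, which drops WT 1 for want of a partner, 0 members were called, Syncrip was at -2.34 (limma adjusted p = 0.0289), Eef1b2 at 0.10 and Eif4e3 at 0.12, and the medians were 0.16 for eIF3 and -0.20 for eIF4F. It changed no other call, and the sign of no other named member.

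With each library left out in turn, members called by limma ranged from 0 to 19 and members below all WT values from 13 to 23. Syncrip ranged from -2.55 to -2.32 and missed the threshold without WT 1, WT 2 or WT 3 (limma adjusted p = 0.209, 0.164 and 0.203). The medians ranged from 0.27 to 0.48 for eEF2 and its kinase, from -1.05 to -0.54 for eIF2, from 0.046 to 0.23 for eIF2B, from -0.036 to 0.17 for eIF3, from -0.27 to -0.023 for the eIF4E-binding proteins, from -0.20 to -0.066 for eIF4F, and from -0.48 to -0.11 for eIF5, eIF5B and eIF6. Of the members, Eef1a1 ranged from -0.47 to 0.049, Eef1b2 from -0.31 to 0.18, Eif2b5 from -0.015 to 0.23, Eif3j1 from -0.29 to 0.34 and Eif4e3 from -0.19 to 0.13. A lone KO library was assumed to vary like the WT libraries.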
